A study of Rousettus aegyptiacus with 32 samples.

Results

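The regions described here are 490 stretches of open chromatin, each under 2000 bases wide, that carried strong ATAC-seq peaks in every brain library and in no library of liver, muscle or testis of the Egyptian fruit bat, Rousettus aegyptiacus. They were chosen by the authors' -log10 p of each peak. In each library, peak intervals were ranked by their -log10 p and the first 50000 counted as strong. Strong intervals of the 14 brain libraries were joined into 116727 regions, and 17617 of these overlapped a strong interval in all 14 (pan-brain regions). The 490 members, 2.78% of the pan-brain regions, are those that also overlapped no strong interval in the 6 peripheral libraries and stayed below the width limit. Brain against peripheral tissue is therefore the contrast that selected them, and their values in it are given as a description.

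The libraries came from 2 adult males, bats 1 and 3, with 1 library per tissue and animal. The brain tissues were cerebellum, the caudate nucleus and putamen of the striatum, and 4 cortical areas, 2 of them in primary motor cortex (ofM1, orofacial, and wM1, wing), 1 premotor (PreM) and 1 secondary auditory (2A). The peripheral tissues were liver, pectoralis muscle and testis. All samples were bulk tissue, so a weaker peak can mean fewer cells of a type with the site open or less opening per cell, which cannot be told apart here. RNA-seq of the series came from other animals and was not used here. The regions carry no gene names here, so the tissue labels were not checked against marker genes.

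ATAC-seq maps DNA that a transposase can reach, which is mostly DNA free of tightly packed nucleosomes. Such sites are mainly promoters, where transcription starts, and distal elements such as enhancers, where transcription factors bind and act on genes at a distance. Enhancers are often open in a few cell types, whereas many promoters of widely used genes are open nearly everywhere. A site open across cerebellum, striatum and cortex but weak elsewhere can lie in neurons, which share much of their machinery across regions, or in glia such as oligodendrocytes and astrocytes, which are present in all 3. The gene, promoter or intron at each region was not analysed here, and the cell types behind them were not either, so regions are named by scaffold position and by number (PB001 to PB490, in falling order of the lowest -log10 p among the 14 brain libraries).

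In every brain library the members carried a strong peak, and in the peripheral libraries they were listed with a low fold or not at all. Fold enrichment is the authors' value, the height of a peak over the caller's background, with no scaling between libraries. Members had a median fold of 9.03 and 8.08 in cerebellum of bats 1 and 3, of 12.9 and 13.7 in caudate and of 13.2 and 10.6 in putamen. The 8 cortical libraries had medians between 7.92 (PreM of bat 1) and 11.3 (2A of bat 1). Where a peripheral library listed an interval at a member at all, its median fold was 1.81 and 2.604 in liver, 2.58 and 2.80 in muscle and 2.43 and 2.70 in testis of bats 1 and 3. The lowest brain fold of a member had a median of 6.29 (range 2.81 to 13.5), against 7.96 over all pan-brain regions.

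**Figure D1:**
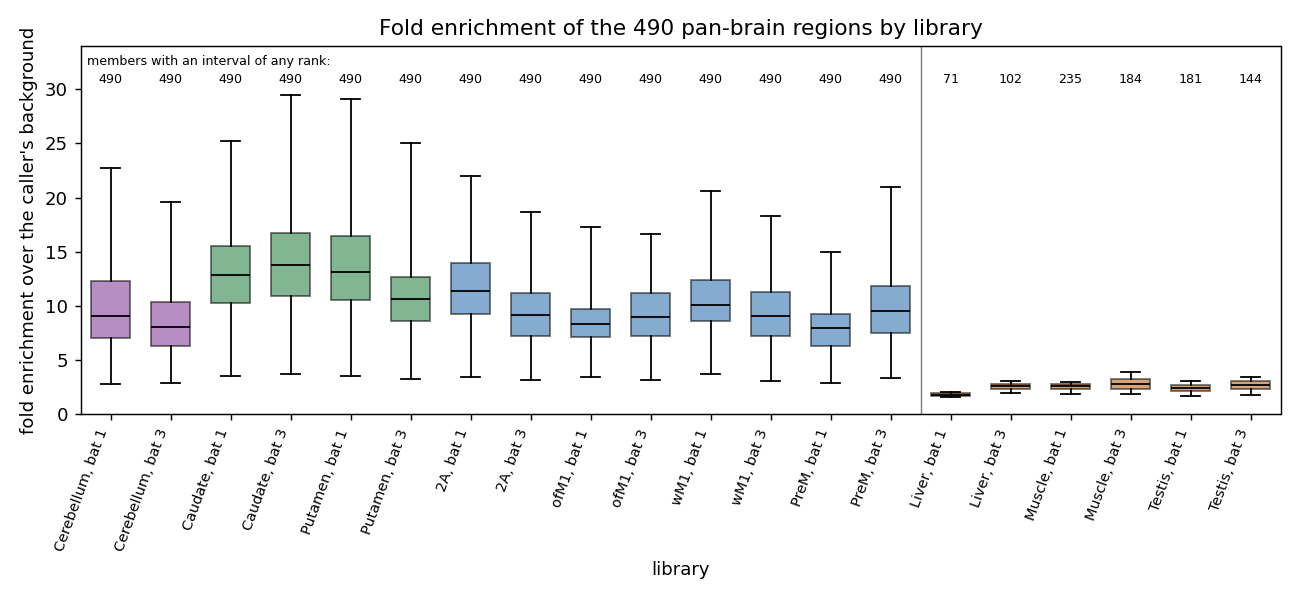
Fold enrichment over the caller's background (y axis) of the 490 members in each of the 20 libraries (x axis), with brain libraries left of the grey line and peripheral ones right of it. Boxes span the quartiles with the median as a line, whiskers reach the lowest and highest value, and the number above each box counts members with an interval of any rank: 490 in each brain library and 71 to 235 in the peripheral ones, whose folds reach at most 3.89.

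Although strong in rank among all peaks, the members were among the weaker pan-brain regions. Ranked by -log10 p among the 17617 pan-brain regions of a library (0 the weakest, 100 the strongest), the median member stood at the 20.8th and 21.3rd percentile in cerebellum and between the 12.1th and 22.6th in the 12 striatal and cortical libraries. Ranked by fold they stood higher, at the 33.2nd to 43.3rd percentile in striatum and the 22.9th to 40.4th in cortex, but little in cerebellum (21.9th and 22.9th). They were also narrower, with a median width of 1068 bases (quartiles 815 and 1406), against 1408 bases over all pan-brain regions and 1629 bases for the 4821 regions with a strong interval in all 20 libraries. Together they covered 550.5 kb. Another 39 regions met the same conditions but were at least 2000 bases wide (median 2375 bases). Their lowest brain fold had a median of 5.56.

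The strongest member by lowest brain -log10 p, PB001, spans bases 91222196 to 91223407 of scaffold NW_023416285.1. Its fold was 17.0 and 17.8 in cerebellum of bats 1 and 3, 21.4 and 21.9 in caudate, and 21.1 and 16.4 in putamen. Over the 8 cortical libraries its fold was lowest at 13.5, had a median of 15.6 and was highest at 22.0. By percentile among pan-brain regions its median was 70.7 in cortex, 61.7 in striatum and 56.8 in cerebellum. All 14 brain values lay above the peripheral ones, since muscle listed it at 2.99 and 2.34 and testis at 2.01 and 3.21, and neither liver library listed it. The next, PB002 (scaffold NW_023416306.1, bases 47084991 to 47086391), had its highest folds in striatum, at 21.8 and 20.9 in caudate and 21.5 and 17.7 in putamen, against 11.6 to 16.3 in cortex. In cerebellum they were 15.0 and 13.3. PB004 (scaffold NW_023416295.1, bases 51957880 to 51959734) was at the 79.3rd and 84.6th percentile in cerebellum, 38.6th to 72.3rd in striatum and 38.2nd to 74.97th in cortex.

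Weak peaks were common at the members in peripheral tissue. A total of 393 members had an interval of lower rank in at least 1 peripheral library, and 97 (19.8%) had none at all. Muscle was the most frequent, with 313 members listed in either bat and 106 in both, followed by testis (237 and 88) and liver (154 and 19). The order of tissues was the same over all pan-brain regions. Of these, 96.3% and 94.2% had an interval of any rank in muscle of bats 1 and 3, 91.8% and 87.6% in testis, and 51.6% and 84.7% in liver. In all 393, the lowest of the 14 brain folds was above the highest peripheral fold, by a median of 2.27 times (range 1.06 to 5.72). The rule favours this gap, as members were chosen for weak peripheral intervals. Peripheral folds were also lower at regions with a strong interval in all 20 libraries. Their median fold ran from 2.441 (liver of bat 1) to 9.915 (muscle of bat 3) in peripheral libraries. In brain libraries it ran from 10.29 (ofM1 of bat 3) to 15.68 (putamen of bat 1). PB007 was the strongest, by lowest brain -log10 p, of the 97 members without a peripheral interval. It lies at bases 159545729 to 159546703 of scaffold NW_023416284.1. Its folds were 10.8 and 11 in cerebellum, 16.1 to 22.9 in striatum and 13.1 to 19.2 in cortex. By percentile its median was 43.2 in cerebellum, 33.2 in striatum and 48.4 in cortex. At the other end, PB027 (scaffold NW_023416307.1, bases 65305214 to 65306037) and PB333 (the same scaffold, bases 20750693 to 20752189) had an interval in all 6 peripheral libraries, the best of them at ranks 51226 and 52231.

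**Figure D2:**
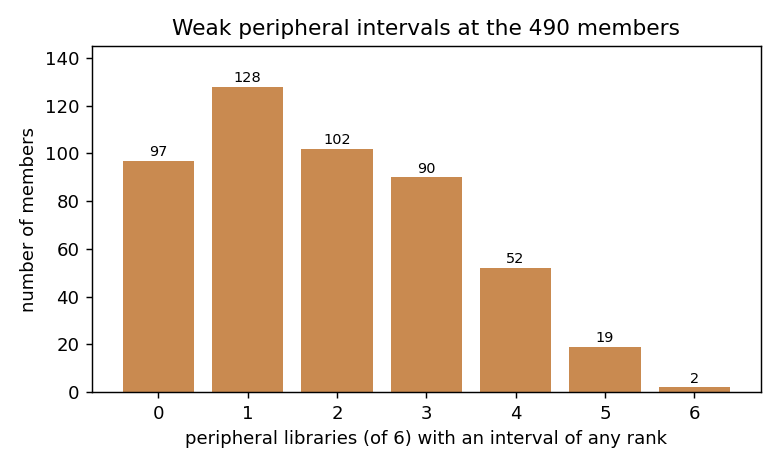
Number of members (y axis) by how many of the 6 peripheral libraries listed an interval of any rank at them (x axis). Most members had 0 to 3 such libraries (97, 128, 102 and 90 members), and 2 had all 6.

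Regions just inside and just outside the limits of the rule had nearly the same values. The member with the strongest peripheral interval, PB174, had it at rank 50012 in muscle of bat 3, and 140 members had one ranked 60000 or better. Just outside, a region on scaffold NW_023416285.1 (bases 83117075 to 83117830) was left out by an interval at rank 49930 in testis of bat 1. The weakest brain rank of a member was 49969 (PB330, ofM1 of bat 1), and a region on scaffold NW_023416295.1 (bases 76405277 to 76406709) missed by rank 50027 in PreM of bat 3. The widest member, PB048, had 1978 bases, and the narrowest of the 39 wider regions had 2015. A further 299 narrow regions had no strong peripheral interval and a strong one in 13 of the 14 brain libraries. In 77 of them the missing library was cerebellum of bat 1 and in 42 cerebellum of bat 3, and 295 had a weaker interval in the missing library.

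To see how far the choice carries over to an animal that did not take part in it, the rule was applied to the 10 libraries of 1 bat and the regions were looked up in the other. Of 1308 regions chosen in bat 1, 961 (73.5%) had a strong interval in all 7 brain libraries of bat 3, 722 (55.2%) had none in its 3 peripheral libraries, and 509 (38.9%) met both conditions. The comparison was with 15834 narrow regions that were pan-brain in bat 1 but had a strong peripheral interval there. Of these, 93.3% were strong in all 7 brain libraries of bat 3, 4.97% had no strong peripheral interval and 634 met both conditions. The chosen regions thus kept the brain condition less often and the peripheral condition more often than these, which were picked for a strong peripheral interval. A second comparison was with 63306 narrow regions that were not pan-brain and had no strong peripheral interval in bat 1. Of these, 87.7% had no strong peripheral interval in bat 3, a larger share than of the chosen regions. In the other direction, 68.6% of 1639 regions chosen in bat 3 met the brain condition in bat 1, 49.4% the peripheral one and 500 (30.5%) both, against 91.1%, 4.33% and 2.86% of 15406 narrow pan-brain regions with a strong peripheral interval in bat 3. Of 62032 narrow regions that were not pan-brain and had no strong peripheral interval in bat 3, 86.85% met the peripheral condition in bat 1. Among the chosen regions, the peripheral condition was the one lost more often in both directions. The peripheral libraries were also the weakest of the series, with a median fold of 2.23 to 6.08 among their 50000 strong intervals, against 6.94 to 12.8 in the brain libraries. Liver of bat 1 was the lowest, and leaving it out of the rule gave 518 regions.

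The position of the peak summit, which the rule did not use, was nearly the same in all brain libraries. Over the 14 libraries, the strongest summit of a member moved over a median range of 25 bases, against 30 bases in the 14354 other narrow pan-brain regions and 39 bases in regions open in every library. At 405 members (82.7%) all 14 summits lay within 100 bases of their median, against 84.0% of the other narrow regions. Between the 2 bats the summits of the same tissue were a median of 6 bases apart at members and 7 bases at the other narrow regions. PB007 had its 14 summits within 19 bases, around base 159546415, and PB001 within 40 bases. PB003 was among the members whose strongest summit changed place, with a range of 286 bases. Peaks at members also had fewer summits: 37.5% of their peaks held a single summit, against 21.2% at the other narrow regions and 7.50% at regions open in every library, and 41 members had a single summit in all 14 libraries. These values are descriptive, and members were narrower than the regions they are set beside.

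The order of the members by strength was similar between the bats in cerebellum, caudate and putamen, and less so in the cortical areas. Between cerebellum and the other divisions its correlation was near 0. Across the 490 members, the Spearman correlation of the percentile between bats 1 and 3 was 0.842 in cerebellum, 0.811 in caudate and 0.657 in putamen. In the cortical areas it was 0.443 (2A), 0.518 (ofM1), 0.478 (wM1) and 0.479 (PreM). Different cortical areas correlated at a median of 0.482 between the bats and 0.705 within a bat. Between striatum and cortex the median over 32 pairs of libraries was 0.242, and between cerebellum and cortex it was 0.0114 over 16 pairs (range -0.11 to 0.15). These correlations describe regions that share libraries and were limited in range by the rule. With striatum, cerebellum had a median of 0.0321 over 8 pairs.

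Strength within the brain was then compared between cerebellum, striatum and cortex, which the rule did not contrast, since it asks only for a strong interval in each library. Percentiles among the 17617 pan-brain regions were turned into normal scores (units of 1 standard deviation of a normal distribution), averaged over the libraries of a division within each bat, and tested in limma over all pan-brain regions with 2 bats per division. Each of the 2 bats gave libraries of all 3 divisions, and the main fit had no term for the animal. Its estimate of spread was shared over the divisions, and with only 2 bats the p-values measure the spread between these bats. A fit with the animal as a term is given below. At an adjusted p under 0.05, 327 members (66.7%) differed in at least 1 of the 3 contrasts, against 59.4% of all pan-brain regions, and 163 in none. By this ranking, most pan-brain regions were thus called in at least 1 contrast, members or not. The shares called by both -log10 p and fold are smaller and are given below for each contrast.

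Between cerebellum and cortex, 166 members (33.9%) were higher in cerebellum and 83 (16.9%) lower, against 23.4% and 24.9% of all pan-brain regions. Between cerebellum and striatum, 149 members (30.4%) were higher in cerebellum and 91 (18.6%) lower, against 20.8% and 21.4%. Between striatum and cortex, 45 members (9.18%) were higher in striatum and 24 (4.90%) lower, against 4.27% and 3.99%. Leaving out 1 library raised the calls in some refits and lowered them in others. Without putamen of bat 3, 64 members (13.1%) were higher in striatum than in cortex and 19 (3.88%) lower, against 5.3% and 4.65% of all regions. The calls fell in the refits that follow. Without cerebellum of bat 1, 106 members (21.6%) were higher than in cortex and 49 (10%) lower, against 15.1% and 15.4% of all regions. Without cerebellum of bat 3, 104 members (21.2%) were higher than in cortex, against 15.5%. Against striatum, 88 members (17.96%) were higher without cerebellum of bat 1 and 87 (17.8%) without that of bat 3, against 12.3% and 12.4% of all regions. For striatum against cortex, 17 members (3.47%) were higher and 18 (3.67%) lower without caudate of bat 3, against 1.75% and 1.88% of all regions. Without ofM1 of bat 1, 28 members (5.71%) were higher in striatum, against 2.32%.

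The balance of directions against cerebellum depended on the measure of strength. When regions were ranked by fold in place of -log10 p, 69 members were higher in cerebellum than in cortex and 150 lower (18.5% and 17.8% of all regions), and 57 were higher in cerebellum than in striatum and 206 lower (23.9% and 21.7% of all regions). The median difference of the members was 0.25 normal scores for cerebellum against cortex by -log10 p and -0.27 by fold, and 0.12 and -0.52 for cerebellum against striatum. No general direction can therefore be given for cerebellum. For striatum against cortex the split kept its direction, with 65 members higher in striatum and 23 lower by fold (6.56% and 5.17% of all regions) and median differences of 0.12 and 0.19. Members called in the same direction by both rankings numbered 53 higher and 71 lower in cerebellum than in cortex, 49 higher and 80 lower in cerebellum than in striatum, and 33 higher and 9 lower in striatum than in cortex. For cerebellum against cortex this was 10.8% and 14.49% of members, against 9.07% and 10.7% of all pan-brain regions. For cerebellum against striatum it was 10% and 16.3%, against 10.6% and 11.03%. For striatum against cortex it was 6.73% and 1.84%, against 2.27% and 1.67%.

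**Figure D3:**
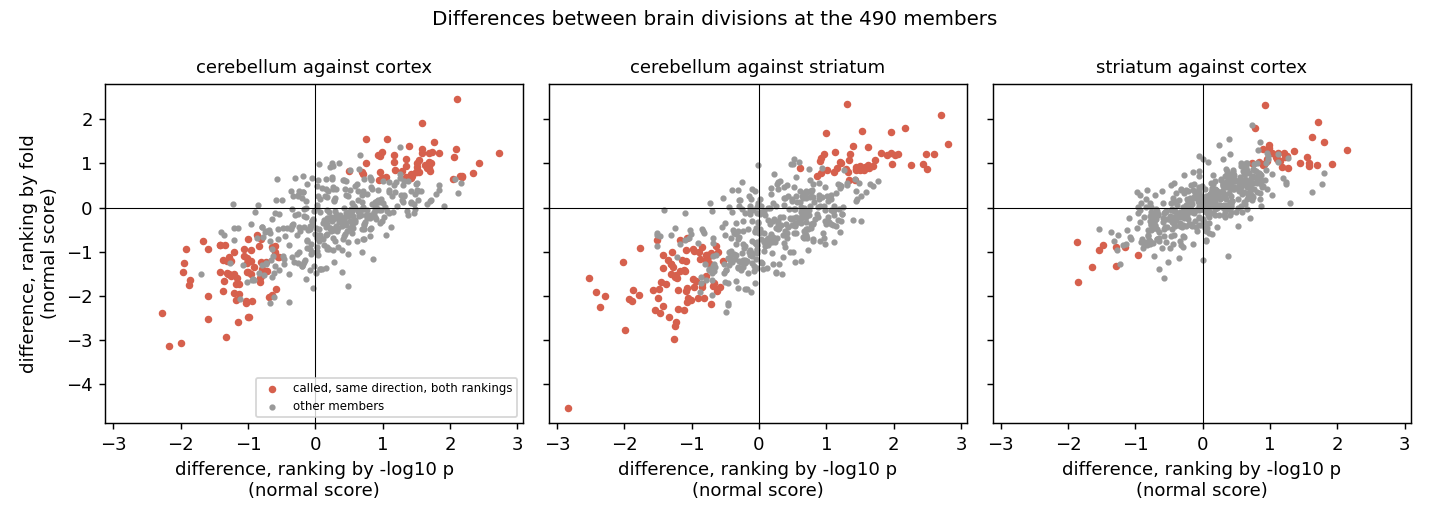
Difference between brain divisions at each of the 490 members, in normal scores, with regions ranked by -log10 p (x axis) and by fold (y axis), 1 panel per contrast; positive means higher in the division named first. Red points are members called in the same direction by both rankings (53 and 71, 49 and 80, and 33 and 9 in the 3 panels, higher and lower), and most points of both cerebellum panels have a lower difference by fold than by -log10 p.

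The single members described next were picked for the largest called differences. A difference far above its standard error (SE) therefore follows from that choice. PB087, on scaffold NW_023416295.1 at bases 124292156 to 124293430, stood at the 92.5th and 90.9th percentile in cerebellum of bats 1 and 3. In the 8 cortical libraries it ran from the 1.61st to the 21.2nd percentile, with a median of 8.34. The groups did not overlap, and the difference was 2.72 ± 0.164 normal scores (SE, limma adjusted p = 0.000876), the largest of the members higher in cerebellum than in cortex. Its folds were 17.4 and 16.1 in cerebellum, against 7.40 to 10.4 in cortex. The striatal libraries lay between, at folds of 10.8 to 14.6.

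PB480 (scaffold NW_023416309.1, bases 85817922 to 85819624) was the reverse. It stood at percentile 0.28 and 1.12 in cerebellum, at the bottom of all pan-brain regions, against 19.1 to 57.3 in cortex with a median of 41.7. The difference was -2.28 ± 0.234 (SE, limma adjusted p = 0.0011), and its folds were 5.84 and 5.48 in cerebellum, against 8.84 to 17.3 in cortex. PB485 (scaffold NW_023416284.1, bases 67214481 to 67215669) followed, with folds of 4.88 and 4.20 in cerebellum, against 12.1 to 17.3 in cortex. Of the 10 members with the largest differences between cerebellum and cortex, 5 in each direction, all were called in the same direction by fold.

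Against striatum, PB084 had the largest difference in favour of cerebellum. It lies at bases 127074088 to 127075643 of scaffold NW_023416284.1 and stood at percentile 64.0 and 64.1 in cerebellum, against 2.68 and 1.11 in caudate and 0.168 and 0.429 in putamen (difference 2.81 ± 0.172, SE, limma adjusted p = 0.000847). Its folds were 11.3 and 11.6 in cerebellum, against 6.46 to 7.78 in striatum. PB445 (scaffold NW_023416295.1, bases 140877605 to 140878385) had the largest difference the other way. Its fold was 4.86 and 5.03 in cerebellum, against 25.3 and 29.4 in caudate and 29.1 and 25.03 in putamen, the highest fold of all 490 members in each of these 4 striatal libraries. By percentile it stood at 0.883 and 2.97 in cerebellum, against 66.9 to 80.9 in striatum (difference -2.84 ± 0.223, SE, limma adjusted p = 0.000847). In cortex it was at folds of 11.5 to 18.3, so by fold the 3 divisions did not overlap.

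PB449 was high in striatum and low in both other divisions. It lies at bases 31286357 to 31288065 of scaffold NW_023416310.1 and had folds of 14.4 and 16.4 in caudate and 17.4 and 14.03 in putamen, against 6.04 to 9.06 in cortex, and 5.98 and 5.89 in cerebellum. Its striatal percentiles of 57.3 to 73.6 lay above all 8 cortical ones (1.26 to 13.4), with a difference of 2.14 ± 0.17 (SE, limma adjusted p = 0.00832). PB112 (scaffold NW_023416292.1, bases 25360194 to 25361179) had the largest difference in the other direction, at percentiles 0.309 to 10.1 in striatum, against 27.6 to 68.6 in cortex (-1.87 ± 0.237, SE, limma adjusted p = 0.0105). Its folds overlapped, at 6.36 to 7.31 in striatum, against 5.38 to 9.33 in cortex, while the ranking by fold still called it lower in striatum (adjusted p = 0.0395 in limma). Of the 10 members named by size in this contrast, PB263, PB332 and PB101 were not called by fold (limma adjusted p = 0.0612, 0.135 and 0.219).

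**Figure D4:**
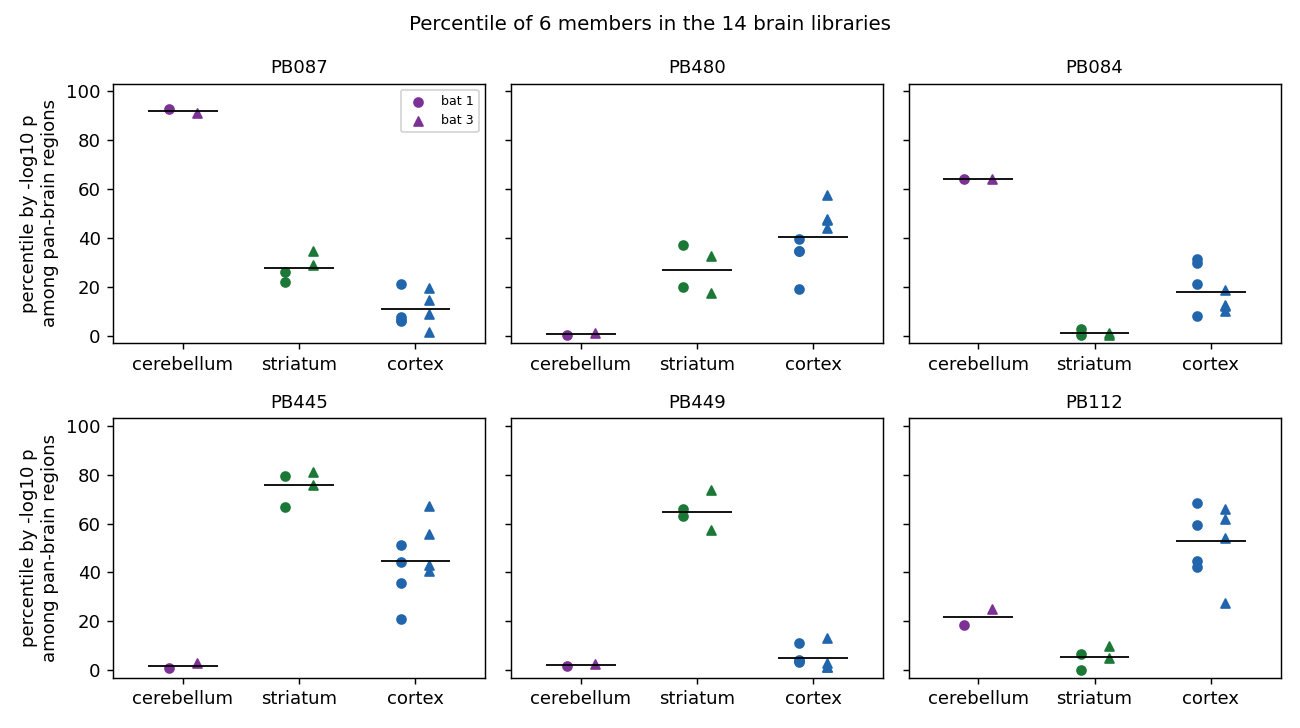
Percentile by -log10 p among the 17617 pan-brain regions (y axis) of the members with the largest called difference in each direction of the 3 contrasts, by brain division (x axis). Circles are libraries of bat 1, triangles of bat 3, and the line is the mean of the 2 bats; PB087 and PB084 are high in cerebellum, PB480 and PB445 low there, PB449 is high in striatum and PB112 low there.

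The members were scattered over the genome. They lay on 19 scaffolds, and the median gap to the next member on a scaffold was 2.15 Mb. A total of 9 neighbouring pairs were within 50 kb and 17 within 100 kb. The closest, PB362 and PB077 (scaffold NW_023416291.1, bases 29488655 to 29489625 and 29494218 to 29494978), were 4592 bases apart. PB210 and PB049 (scaffold NW_023416284.1, bases 145975420 to 145976492 and 145983023 to 145984561) were 6530 bases apart, and PB192 and PB068 (scaffold NW_023416295.1, bases 21013151 to 21014709 and 21020672 to 21022184) 5962 bases.

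One scaffold stood out. On NW_023416312.1, 34 of 444 pan-brain regions (7.66%) were members, against 1.16% to 3.53% on the 17 other scaffolds with at least 100 pan-brain regions. Conversely, 21 of its pan-brain regions (4.73%) had a strong interval in all 20 libraries, against 10.6% to 33.7% on the others. Fewer of its pan-brain regions had a strong interval in each of the 6 peripheral libraries. In liver of bat 1 it was 5.18% of them, against 32.3% of the regions elsewhere, and in testis 71.6% and 68.7%, against 81.8% and 75.8%. Muscle of bat 3 differed least, at 83.3% on the scaffold, against 85.9% elsewhere. In the brain this scaffold held 3.09% and 2.94% of the strong intervals of cerebellum and 1.63% to 2.55% of those of striatum and cortex, against 1.52% and 2.26% in muscle, 1.06% and 0.972% in testis, and 0.24% and 1.39% in liver. Its 34 members were not weaker than the rest, with a median lowest brain fold of 7.19, against 6.17 for the 456 elsewhere. The first of them is PB020, at bases 59198932 to 59200213. The scaffold was singled out after these values were seen, and the difference was not tested.

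**Figure D5:**
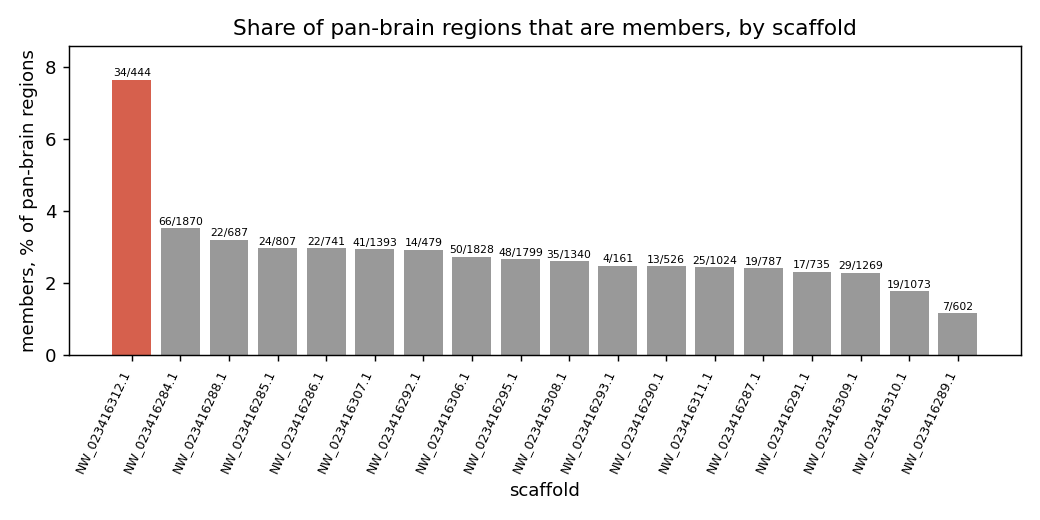
Members as a percentage of pan-brain regions (y axis) on each of the 18 scaffolds with at least 100 pan-brain regions (x axis), with the counts above the bars. NW_023416312.1 is at 7.66%, and the others lie between 1.16% and 3.53%.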

How the data were processed

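The authors deposited 1 peak list per ATAC-seq library, and the file names place all 20 libraries on 1 lane. Per the submitters' processing notes, Bowtie2 and MACS2 were among the tools; their settings and the genome build are not given. In the deposited lists each peak has a fold (linear ratio to background), a -log10 p, a -log10 q and a summit offset. Lists ended at 300000 rows or at a -log10 p of 2, read depth is unknown, and the weakest -log10 p listed ranged from 2 to 12.3. Coordinates are counted from 1.

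Rows with the same interval were collapsed, keeping the highest value, and intervals were ranked by -log10 p. Joined intervals overlap or touch, and overlap means at least 1 base. A region takes the strongest interval it overlaps. Python 3.11.15 and limma 3.58.1 (R 4.3.3, two-sided, Benjamini-Hochberg over 17617 regions, threshold 0.05) were used, and the fit was checked on simulated scores. Libraries of a number come from 1 animal, so the numbers pair them: differences between the bats correlated at 0.335 (cortex and striatum), 0.153 (striatum and cerebellum) and 0.013 (cortex and cerebellum).

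The members and tests were chosen with earlier results of these data known. Regions were named as the 10 strongest by lowest brain -log10 p and those nearest the limits. The 5 largest called differences per direction and contrast were named too, if both bats had the same direction. Part of all these are given. The close pairs, the members with peripheral intervals in all 6 libraries and PB020 were chosen after their values were seen. The planned links to genes, gene lists, motifs and sequence were not run, as no annotation with scaffold positions was used here.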

Additional observations from a re-analysis of the deposited data

Results flagged for a closer look

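In 8 of 82 sets of 4 to 8 libraries examined, 1 library lay far from the others of its division, and chance flags about 1 set in 20. All values are percentiles by -log10 p among pan-brain regions. In cortex, PB219 stood at 26.6 in 2A of bat 1, against 0.397 to 8.07 in the other cortical libraries, and PB263 at 13.5 in PreM of bat 3, against 0.525 to 5.58. In striatum, PB003 stood at 24.4 in caudate of bat 3 (4.28 to 7.28 in the others), PB164 at 7.63 in caudate of bat 1 (0.207 to 0.854), PB189 at 5.78 in caudate of bat 3 (0.0596 to 0.775), PB076 at 27.8 in putamen of bat 1 (1.37 to 2.63) and PB485 at 51.2 in putamen of bat 1 (30.1 to 33.3). PB263 was low at 18.7 in putamen of bat 3, against 56.6 to 59.9 in the other striatal libraries.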

How the results depend on the processing

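The number of regions that meet the rule depends on its limits. It was 162 with the top 25000 intervals and 1518 with the top 100000, and these overlapped 24 and 169 of the 490 members. It was 97 when no peripheral interval of any rank was allowed, 210 with a width below 1000 bases, 1615 without the muscle libraries, 1617 without cerebellum, and 1308 to 1639 with 1 bat. Ranking by fold gave 570, which overlapped 294 members, while requiring more overlap gave 495 and leaving out liver 623. The planned test of position relative to genes could not be run.

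For cerebellum against cortex (166 members higher, 83 lower), the fold ranking gave 69 and 150, and ranking members alone gave 92 higher. The centred log2 of -log10 p gave 114 (23.3%) higher and 175 (35.7%) lower, against 25.1% and 29.6% of all regions. A total of 115 were called in 1 direction on all 3 scales (8.98% of members higher and 14.49% lower, against 8.22% and 10.49% of all pan-brain regions). The median difference of 0.25 became -0.27 by fold, -0.19 on the log2 scale and 0.033 among members alone. For cerebellum against striatum (149 higher, 91 lower), the fold ranking gave 57 and 206 and members alone 96 higher. The log2 scale gave 88 (18.0%) higher and 186 (38.0%) lower, against 22.0% and 27.2% of all regions. With 14 separate libraries, 92 (18.8%) were higher, against 16.1%. A total of 119 were called in 1 direction on all 3 scales (7.96% and 16.3%, against 9.24% and 10.8%). The median of 0.12 became -0.52 by fold, -0.35 on the log2 scale and -0.0069 among members alone. For striatum against cortex (69 in all, 45 higher, 24 lower), 14 separate libraries gave 144. Of these, 84 (17.1% of members) were higher and 60 (12.2%) lower, against 11.4% and 10.3% of all regions. The log2 scale gave 29, with 23 (4.69%) higher and 6 (1.22%) lower, against 1.82% and 1.24%. Members alone gave 40 lower, and 21 were called in 1 direction on all 3 scales (3.06% and 1.22%, against 1.11% and 0.846%). The median of 0.12 became 0.19 by fold and 0.021 among members alone. Ranking members alone gives every library the same set of scores over the members. Its small median differences follow from that ranking and say nothing of direction. It covers members only, so its counts have no share over all regions. The cause of the other shifts was not tested. The 3-scale counts and the fit of the rule without liver of bat 1 were chosen after seeing the data.

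A fit with the replicate block (animal as a term) follows the pairing. In it, 166 members (33.88%) were higher and 95 (19.39%) lower in cerebellum than in cortex, against 24.52% and 26.58% of all regions. For cerebellum against striatum it was 157 (32.04%) and 103 (21.02%), against 22.1% and 23.01%. For striatum against cortex it was 55 (11.22%) and 32 (6.531%), against 5.137% and 4.893%. Each of these shares over all regions was above that of the main fit, so calls did not rise at members alone. The block changed none of the calls of the members named for a difference.

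Leaving out 1 library, or for the medians also 1 bat, gave 155 to 251 calls for cerebellum against cortex (104 to 169 higher, 49 to 85 lower, median 0.22 to 0.29), 152 to 244 for cerebellum against striatum (87 to 153 higher, 64 to 104 lower, median 0.055 to 0.23) and 35 to 83 for striatum against cortex (17 to 64 higher, 16 to 28 lower, median 0.025 to 0.20). The lowest totals came without a cerebellum library for the first 2 contrasts and without caudate of bat 3 for the last. Leaving out a cerebellum library leaves 1 animal there, assumed to vary like the other divisions. Shares over all regions for some of these refits are given with the contrasts above. Of 570 refits of named members, 559 kept their call and 11 lost it, with 0 reversals. These members were picked for large called differences in the same libraries, so kept calls were likely from the start and are no support.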
